A study of Mus musculus with 15 samples.

Results

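Thoracic aortas of 5 mice given rofecoxib were compared with those of 5 mice given vehicle, and all genes expressed in the tissue were followed. Rofecoxib was given once by gavage at 10 mg/kg in 100 microlitres, and vehicle mice received 100 microlitres of PEG-400 (polyethylene glycol) alone. All mice were wild-type C57BL/6 males of 10 to 12 weeks, kept on regular chow with 12 hours of light a day, and were killed 6 hours after the dose at Zeitgeber hour 11, late in the light phase. The members were the 10 libraries whose column names carry these group names, out of 15 in the series, and the remaining 5 came from mice given celecoxib at 30 mg/kg. The series design calls the libraries biological replicates, 5 for each condition. Of 37681 gene rows, 15134 held enough counts to be tested.

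Rofecoxib inhibits cyclooxygenase-2, the inducible enzyme that turns arachidonic acid into prostaglandin H2, and spares cyclooxygenase-1. Terminal synthases convert prostaglandin H2 into prostacyclin, prostaglandin E2 or thromboxane, and each product acts through receptors coupled to G proteins. In the vessel wall, prostacyclin from endothelium and smooth muscle relaxes the vessel and restrains platelets, while thromboxane constricts it. The thoracic aorta of the mouse lies in a sleeve of perivascular fat that resembles brown fat, a tissue rich in mitochondria. In mitochondria the citrate cycle and fatty acid oxidation feed electrons to respiratory complexes I to IV, and ATP synthase uses the proton gradient that these build.

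No gene differed between rofecoxib and vehicle aortas after adjustment over all genes tested. Nearly all genes of oxidative phosphorylation and the citrate cycle had lower means in rofecoxib aortas, in lists chosen with earlier results known. Levels are given as CPM, the share of a library's counts on a scaled library size, which does not correct for gene length. The edgeR quasi-likelihood test called 0 of 15134 genes at an adjusted p under 0.05, which is 0% of genes, and the smallest adjusted p was 0.896, so no gene below has an adjusted p under that value. Before adjustment, 784 genes (5.18%) had a p under 0.05, of which 562 (3.71% of all genes) were lower and 222 (1.47%) higher in rofecoxib aortas. A share near 0.05 passes such a threshold even where no gene differs. DESeq2 likewise called 0 genes, with 240 higher and 573 lower at an unadjusted p under 0.05. In 109 genes (0.72%) all 5 rofecoxib libraries lay below all 5 vehicle libraries, and in 66 genes (0.436%) all lay above. Some genes separate in this way where nothing differs. Neither a small unadjusted p nor a lack of overlap therefore marks a single gene as changed. The median log2 fold change over all genes was -0.000666, and 50.3% of genes had a negative value.

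The 10 libraries held 30938030 to 30967115 counts and 19158 to 19746 detected genes, of whose counts 8.21% to 9.86% fell to the top 10 genes. The median standard error of a log2 fold change was 0.111. Smooth muscle markers were abundant in every library, with Myh11 (smooth muscle myosin heavy chain) at 10868 to 13119 CPM in rofecoxib and 9687 to 12019.7 CPM in vehicle aortas. Some libraries stood apart within their group, vehicle 5 in brown fat markers, and rofecoxib 3, rofecoxib 5 and vehicle 4 in markers of sympathetic neurons. The globins Hba-a1 and Hbb-b1 were highest in vehicle 3 and also high in vehicle 4 and vehicle 5. The median of the inflammation list moved most when vehicle 3 was left out. The levels of these libraries are given beside the results they touch. The 37 rows of the mitochondrial genome held 0 counts in every library, so the respiratory subunits described here are those encoded in the nucleus.

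Genes of oxidative phosphorylation and of the citrate cycle that feeds it had lower mean levels in rofecoxib aortas in nearly every case. Both are counted below as oxidative phosphorylation genes, of which 17 belong to the citrate cycle list. Of 97 genes tested across respiratory complex I, complexes II to IV, ATP synthase and the citrate cycle, 95 had a negative log2 fold change, and the median was -0.31. Of these, 84 (86.6%) had an unadjusted p under 0.05 with lower levels, beside 3.71% of all genes, and none passed adjustment. They made up 14.9% of all genes lower at that threshold. The lists were chosen with earlier results of these data known, so the shares given here describe the data and test nothing. The 97 genes were also read in the same libraries and are not independent. In 17 of the 97 (17.5%) the groups did not overlap, beside 0.72% of all genes. These 17 were Ndufa3, Ndufa4, Ndufa5, Ndufa12, Ndufb2, Ndufb3, Ndufb11, Ndufc2 and Ndufv2 of complex I, Uqcrb, Uqcrh and Uqcr11 of complex III, and Cox6b1, Cox6c, Cox7a1, Cox7a2 and Cox7b of complex IV. Without vehicle 5, the library with the highest levels of these genes, 44 of the 97 were lower at that threshold. In that comparison the counts over all genes were 293 lower and 160 higher.

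**Figure D1:**
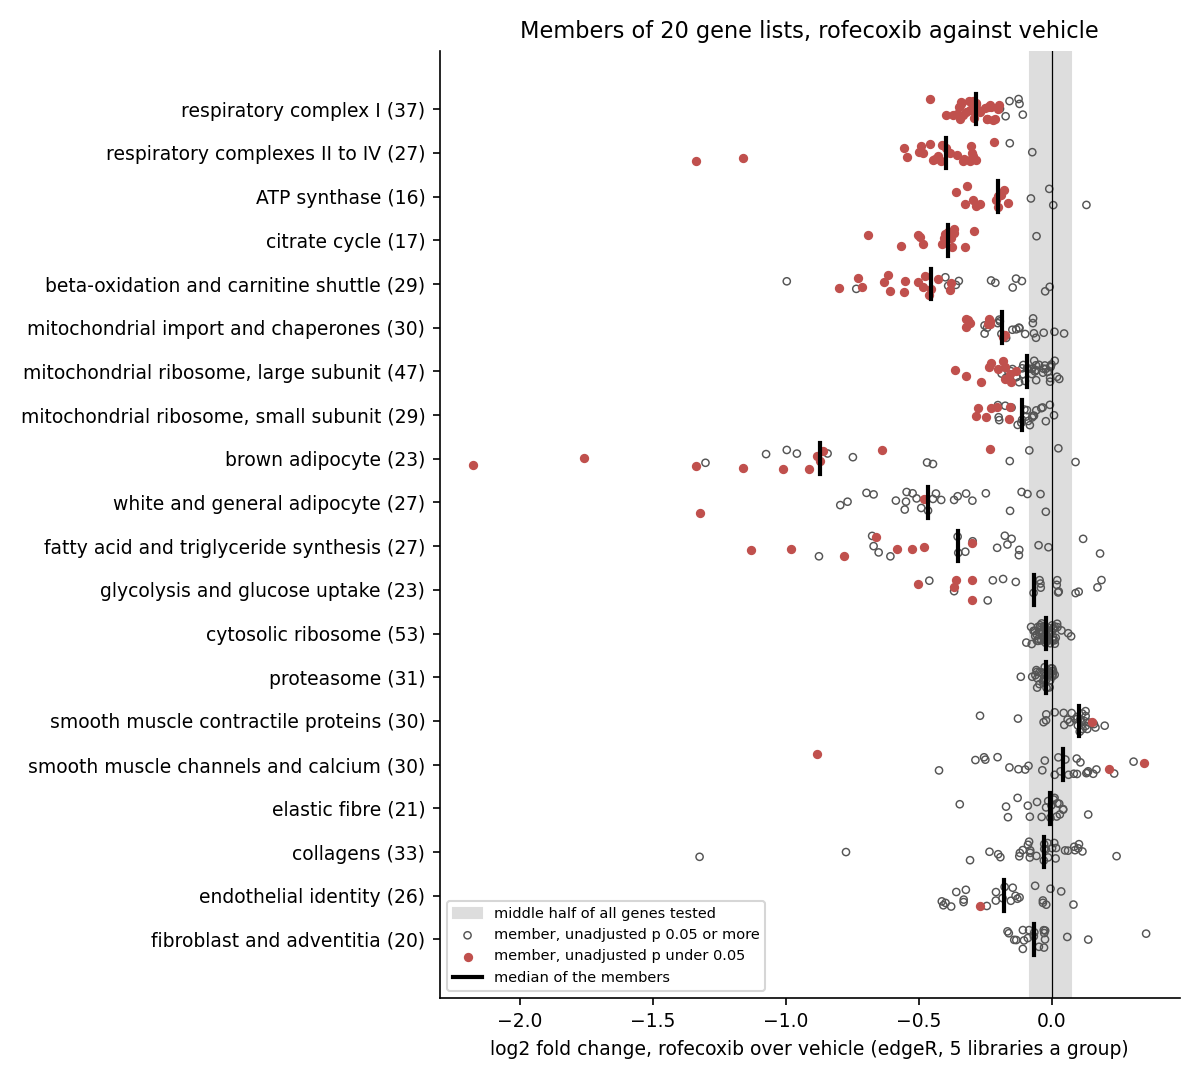
Log2 fold change (rofecoxib over vehicle, edgeR, 5 libraries a group, x axis) of each tested member of 20 gene lists, with the number of members in parentheses, filled points for an unadjusted p under 0.05, a black bar at the list median and a grey band from the lower to the upper quartile of all genes tested. The medians of the respiratory, citrate cycle, beta-oxidation and fat lists lie left of the band, from -0.87 to -0.20, though some members lie within it or to its right. The medians of mitochondrial import (-0.19), the large and small mitochondrial ribosome subunits (-0.093 and -0.11) and endothelial identity (-0.18) also lie left of it. The cytosolic ribosome median is -0.022 and the proteasome median -0.022.

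Complex I, which passes electrons from NADH to ubiquinone, had negative values for all 37 genes tested, and their median was -0.28 on the log2 scale. At an unadjusted p under 0.05, 31 (83.8%) were lower, beside 3.71% of all genes. In 9 (24.3%) the groups did not overlap, beside 0.72% of all genes. Ndufa3, an accessory subunit (mm9 chr7:3568773-3571967), had 36.7, 36.5, 37.8, 37.1 and 37.5 CPM in rofecoxib libraries 1 to 5, against 43.8, 40.6, 41.2, 49.4 and 55 CPM in vehicle libraries 1 to 5. The rofecoxib values were nearly identical, every one lay below the lowest vehicle value, and vehicle 4 and vehicle 5 were highest. The fold for Ndufa3 was 0.807 (95% interval 0.712 to 0.914), with an unadjusted p of 0.00239. The Ndufa3 row overlaps Tfpt in the deposited coordinates, with 352 mean counts for Tfpt beside 1292 for Ndufa3.

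Ndufa5, another accessory subunit, had 31.7, 27, 30.7, 30.1 and 26 CPM in rofecoxib aortas, against 35.2, 32.5, 33.1, 36.3 and 41.5 CPM in vehicle aortas. Again the groups did not overlap, and the gap between the highest rofecoxib and the lowest vehicle library was small. Ndufs8, an iron-sulfur subunit of the core, had 34, 30.2, 33.4, 35.4 and 32.2 CPM in rofecoxib and 42.6, 36.9, 33.7, 44.2 and 50.7 CPM in vehicle aortas, and here rofecoxib 1, rofecoxib 4 and vehicle 3 lay close together. Its fold was 0.793 (95% interval 0.682 to 0.922).

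Complexes II to IV carry electrons from succinate and ubiquinol to cytochrome c and oxygen, and had the lowest median of the respiratory lists. All 27 genes tested were negative, and the median log2 fold change was -0.40. At an unadjusted p under 0.05, 25 (92.6%) were lower, beside 3.71% of all genes. In 8 (29.6%) the groups did not overlap, beside 0.72% of all genes. Cox7a2, the broadly expressed form of a small complex IV subunit (mm9 chr9:79602846-79607862), had 64.7, 61.9, 68, 67.8 and 63.4 CPM in rofecoxib aortas, against 80.1, 72.2, 73.7, 90.6 and 93.4 CPM in vehicle aortas. All rofecoxib libraries lay below all vehicle libraries. The fold for Cox7a2 was 0.794 (95% interval 0.699 to 0.903), with an unadjusted p of 0.00166.

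Uqcrh, the hinge subunit of complex III, had 124, 115, 122, 128 and 120.0 CPM in rofecoxib and 150.4, 136, 133, 154 and 176 CPM in vehicle aortas, with a fold of 0.813 (95% interval 0.718 to 0.92) and no overlap. Its row overlaps Lrrc41, which had a mean of 1020 counts, beside 4230 for Uqcrh. Uqcrb, which lines the quinone site of complex III, had 97.4, 87.8, 91.9, 93.7 and 78.7 CPM in rofecoxib and 108, 97.8, 103, 117 and 122 CPM in vehicle aortas. The highest rofecoxib library, rofecoxib 1, was just under the lowest vehicle library, vehicle 2. Cox7a1, the muscle and brown fat form of the subunit that Cox7a2 encodes, had 19.5, 8.38, 15.4, 10.5 and 7.68 CPM in rofecoxib aortas, against 32, 19.9, 23.3, 27.4 and 52.8 CPM in vehicle aortas. Its fold, 0.395 (95% interval 0.167 to 0.933), was the lowest among the 17 genes without overlap, and vehicle 5 stood far above the other libraries.

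**Figure D2:**
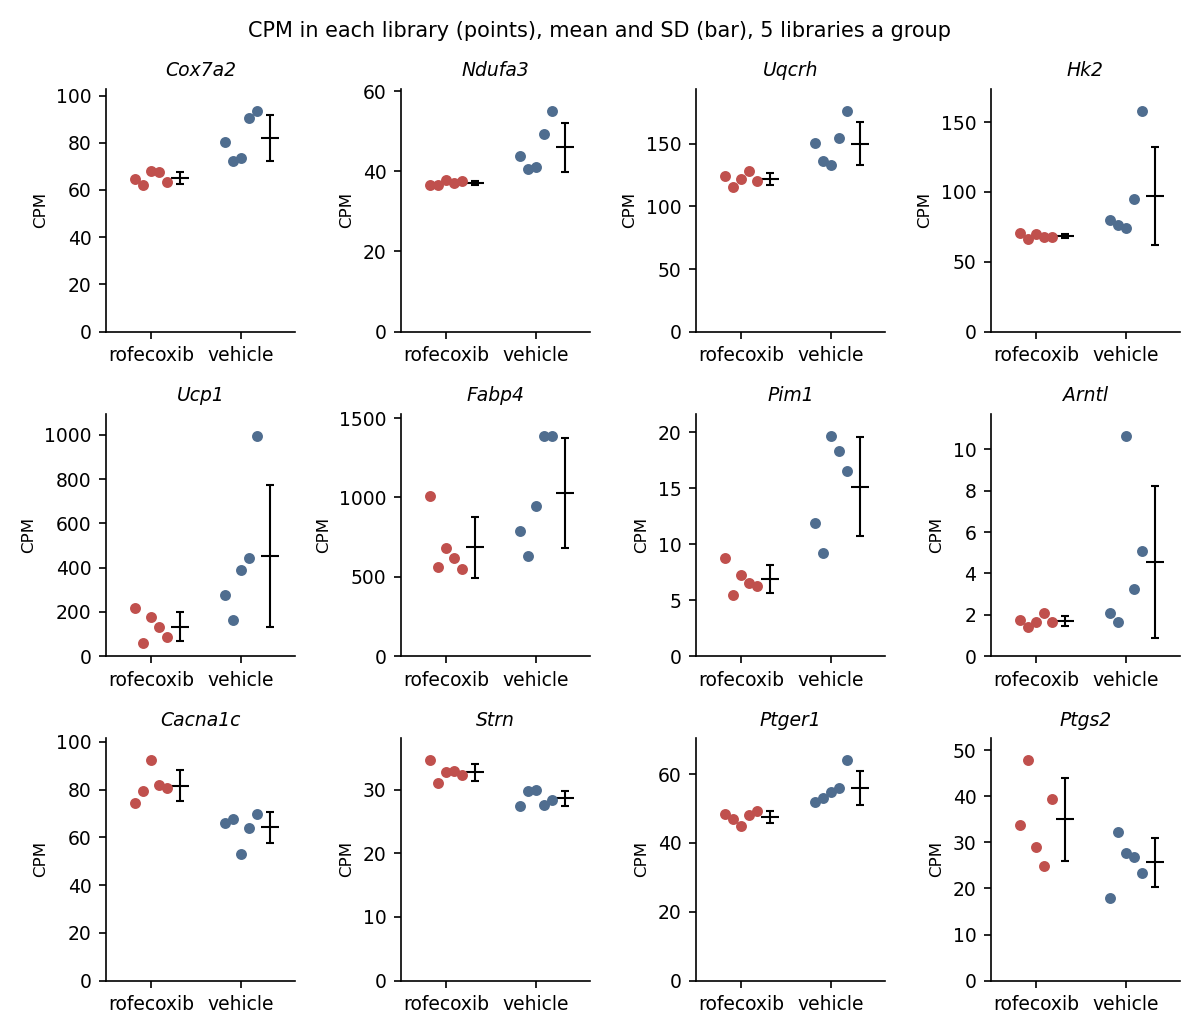
CPM (y axis, from 0) of 12 genes in each library, with rofecoxib libraries left and vehicle libraries right as points in replicate order, and the mean with its SD as a bar (n = 5 each). Cox7a2, Ndufa3, Uqcrh, Hk2, Pim1 and Ptger1 are lower in every rofecoxib library than in every vehicle library, Cacna1c and Strn are higher, and the groups overlap for Ucp1, Fabp4, Arntl and Ptgs2.

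ATP synthase had smaller differences. Of 16 genes tested, 14 were negative, and the median log2 fold change was -0.20. At an unadjusted p under 0.05, 12 (75%) were lower, beside 3.71% of all genes, and 0 had groups that did not overlap. Atp5l, a membrane subunit, had 45.4, 47.1, 43.8, 49.5 and 41.3 CPM in rofecoxib and 60.0, 46.6, 50.3, 60.4 and 59.5 CPM in vehicle aortas, where vehicle 2 lay within the rofecoxib range. Atp5c1, the central rotor shaft, averaged 149 ± 7.52 CPM in rofecoxib and 169 ± 9.99 CPM in vehicle aortas (SD, n = 5 each), with a fold of 0.884 (95% interval 0.805 to 0.97). Atp5j2, a small membrane subunit, averaged 76 ± 3.84 CPM in rofecoxib and 94.8 ± 15.4 CPM in vehicle aortas, a fold of 0.802.

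In the citrate cycle and the pyruvate dehydrogenase complex that supplies it, all 17 genes tested were negative. Of these, 16 (94.1%) were lower at an unadjusted p under 0.05, beside 3.71% of all genes. The median was -0.39 on the log2 scale. Cs, citrate synthase, had 340.2, 265, 284, 289.8 and 252 CPM in rofecoxib and 379, 312, 339, 379.8 and 495 CPM in vehicle aortas. Rofecoxib 1 lay above vehicle 2 and vehicle 3, so the groups overlapped, and the fold was 0.75 (95% interval 0.621 to 0.907). Pdhb, the beta subunit of pyruvate dehydrogenase, had 96.4, 74.2, 78.6, 77.2 and 72.5 CPM in rofecoxib and 111, 85.3, 93.5, 129 and 146 CPM in vehicle aortas, where rofecoxib 1 stood above the other rofecoxib libraries and overlapped vehicle 2 and vehicle 3. Pdha1, the alpha subunit, averaged 202 ± 18 CPM in rofecoxib and 261 ± 44 CPM in vehicle aortas.

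The promoters of the oxidative phosphorylation genes were read from RefSeq windows (GRCm38.p6, 250 bases before to 50 after each start). Windows matched 83 of the 97 genes. Nuclear respiratory factor 1 (NRF1) is a transcription factor known to bind promoters of many respiratory genes, and its motif was searched on both strands as GCGCA, any base, then GCGC. The motif stood in the windows of 20 of the 83 genes (24.1%), beside 5.19% of 27025 genes in the table, tested here or not, and in 4 of 40 cytosolic ribosome genes (10%). These shares describe promoter sequence, which does not depend on the treatment, and a link to the lower levels was not tested. Of the 15 genes without overlap that matched, 1 held it (6.67%). TCAAGGTCA, bound by estrogen-related receptors, stood in 2 of the 83 (2.41%), beside 0.466% of all genes, and ACCGGAAGT, bound by ETS factors such as GABPA, in 2 (2.41%), beside 1.21%. All 3 motifs were searched on both strands, and a match describes letters, not binding. The GRCm38.p6 windows that follow, 5′ to 3′ on the minus strand that carries each gene, show matches in capitals, none of which overlaps another. Ndufa5 is the 1 gene without overlap between groups that holds the NRF1 motif, Sdha holds 3 copies, and Sdhd holds the NRF1 motif and the estrogen-related receptor motif in reverse complement.
Ndufa5, chr6:24527641-24527940: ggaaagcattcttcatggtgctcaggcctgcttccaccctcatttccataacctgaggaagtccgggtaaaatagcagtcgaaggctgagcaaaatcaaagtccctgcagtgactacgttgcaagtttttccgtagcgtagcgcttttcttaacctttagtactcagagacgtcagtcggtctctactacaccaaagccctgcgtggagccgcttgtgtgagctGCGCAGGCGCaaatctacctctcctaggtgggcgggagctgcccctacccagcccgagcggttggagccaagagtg
Sdha, chr13:74350191-74350490: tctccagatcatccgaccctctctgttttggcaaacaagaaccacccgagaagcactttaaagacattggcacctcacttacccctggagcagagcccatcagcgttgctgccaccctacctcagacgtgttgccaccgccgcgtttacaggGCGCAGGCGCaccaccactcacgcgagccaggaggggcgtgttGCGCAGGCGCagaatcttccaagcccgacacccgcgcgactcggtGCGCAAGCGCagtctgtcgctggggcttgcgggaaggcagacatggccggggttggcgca
Sdhd, chr9:50603800-50604099: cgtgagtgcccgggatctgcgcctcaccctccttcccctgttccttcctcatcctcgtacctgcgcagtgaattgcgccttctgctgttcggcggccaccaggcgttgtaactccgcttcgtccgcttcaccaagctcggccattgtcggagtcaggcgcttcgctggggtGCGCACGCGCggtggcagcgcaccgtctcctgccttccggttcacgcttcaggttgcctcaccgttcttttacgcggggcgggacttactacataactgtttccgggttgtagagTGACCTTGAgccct

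Sdha and Sdhd encode the flavoprotein and a membrane anchor of complex II, succinate dehydrogenase. Sdha had 342, 261, 288, 274 and 243 CPM in rofecoxib and 346, 293, 339, 380.3 and 474 CPM in vehicle aortas, a fold of 0.768, and Sdhd had 95.8, 75.9, 82.8, 83 and 73.8 CPM in rofecoxib and 110.1, 89.6, 92.3, 113 and 149 CPM in vehicle aortas, a fold of 0.742. In both genes the groups overlapped through rofecoxib 1, which lay above vehicle 2 and vehicle 3. Both were chosen for their promoters after the values were seen. Nrf1 itself had 28.3, 27.8, 27.3, 27.3 and 26.7 CPM in rofecoxib and 25.9, 26.4, 23.9, 26.4 and 25.3 CPM in vehicle aortas, with no overlap and a fold of 1.07 (95% interval 0.979 to 1.18). Among the 13 regulators of mitochondrial biogenesis tested, 1 was lower at an unadjusted p under 0.05 (7.69%, beside 3.71% of all genes). This was Esrra (estrogen-related receptor alpha), at 34.9, 30.4, 26.9, 30.7 and 31.5 CPM in rofecoxib and 35.8, 31, 29.7, 41.3 and 51 CPM in vehicle aortas. Ppargc1a, the coactivator PGC-1 alpha, averaged 6.65 ± 1.05 CPM in rofecoxib and 9.21 ± 3.8 CPM in vehicle aortas, a fold of 0.723 (95% interval 0.487 to 1.07). These 3 regulators were named after their values were seen.

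These 97 genes also varied less among rofecoxib than among vehicle libraries. The SD of log2 CPM was larger in vehicle for 93 of the 97 genes (95.9%), with a median SD of 0.102 in rofecoxib and 0.225 in vehicle aortas, beside 64.6% of all genes. All 37 complex I genes were of this kind. Without vehicle 5 the vehicle SD was larger for 68 of the 97 (70.1%), beside 61.3% of all genes, and for the citrate cycle alone it was larger in 7 of 17 genes (41.2%). Summed over complexes II to IV, levels were 2981, 2514, 2698, 2709.6 and 2444 CPM in rofecoxib libraries 1 to 5 and 3375, 2871, 3023, 3654 and 4416 CPM in vehicle libraries 1 to 5. The rofecoxib sums clustered, rofecoxib 1 was the highest of them and above vehicle 2, and vehicle 4 and vehicle 5 were highest of all.

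Markers of brown fat followed a similar order across libraries. The 23 brown adipocyte genes tested summed to 1136, 774, 975, 919 and 772 CPM in rofecoxib libraries, against 1324, 1061, 1463, 1521 and 2534 CPM in vehicle libraries. Rofecoxib 1 was again the highest of its group, vehicle 2 the lowest and vehicle 5 the highest of its own. This list shares Cox7a1 and Cox8b with complexes II to IV. Of the 23 genes, 21 were negative, and the median log2 fold change was -0.87. At an unadjusted p under 0.05, 11 (47.8%) were lower, beside 3.71% of all genes. In whole tissue, fewer cells of a type and less RNA per cell cannot be told apart, and the part of brown fat in the respiratory values was not tested. Without vehicle 5 the median was -0.60 for the brown adipocyte list, -0.19 for complex I, -0.28 for complexes II to IV, -0.28 for the citrate cycle and -0.15 for ATP synthase.

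**Figure D3:**
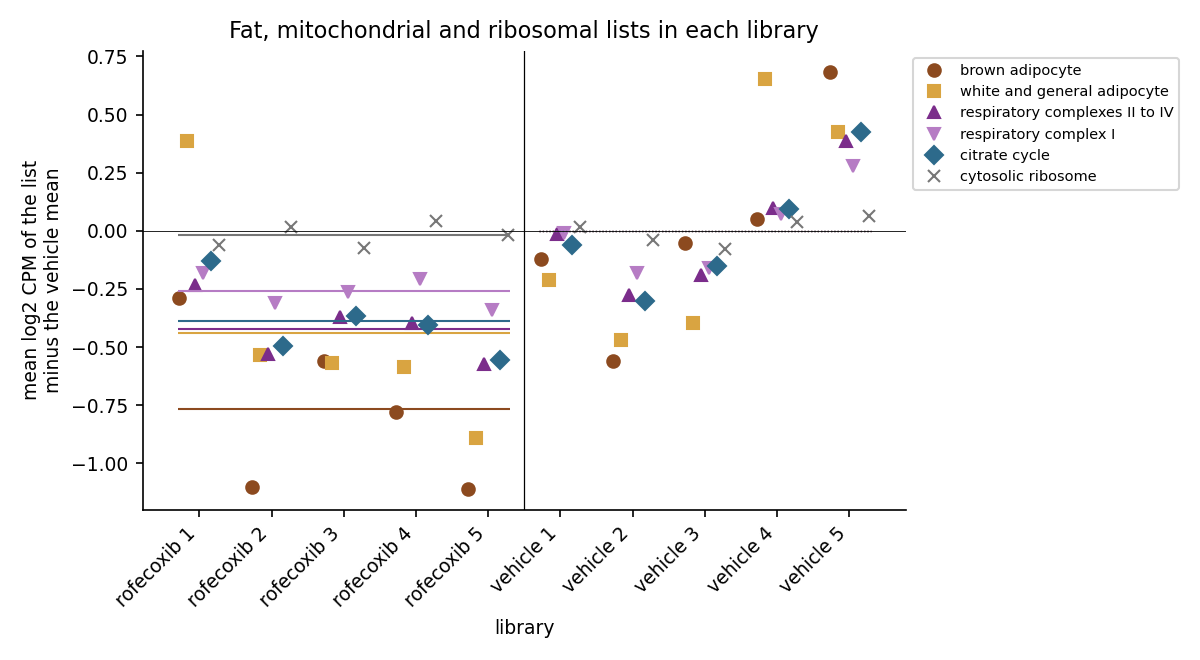
Mean log2 CPM of 6 gene lists in each library (x axis), minus the mean of the same list over the 5 vehicle libraries (y axis), with a line at each group mean. Among vehicle libraries the brown adipocyte, respiratory and citrate cycle lists are highest in vehicle 5, the cytosolic ribosome list stays near 0 in every library, and among rofecoxib libraries the fat lists are highest in rofecoxib 1.

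Ucp1, the uncoupling protein that lets brown fat make heat (mm9 chr8:85814045-85822557), had 217, 60.9, 175, 132 and 85.1 CPM in rofecoxib aortas, against 274, 165, 387, 444 and 996 CPM in vehicle aortas. Most rofecoxib values were under the vehicle values, rofecoxib 1 and rofecoxib 3 overlapped vehicle 2, and vehicle 5 was far above the rest. The fold was 0.296 (95% interval 0.102 to 0.856), and the log2 fold change was -1.25 at its nearest to 0 when 1 library was left out. Dio2, the deiodinase that activates thyroid hormone in brown fat, had 47.2, 38.9, 60.4, 46 and 56 CPM in rofecoxib and 49.7, 62.6, 129, 92.7 and 134 CPM in vehicle aortas, a fold of 0.531 (95% interval 0.363 to 0.777). Vehicle 3, vehicle 4 and vehicle 5 were high, and vehicle 1 lay within the rofecoxib range. Gyk, glycerol kinase, had 63.5, 58, 57.2, 55.5 and 47.7 CPM in rofecoxib and 64.1, 62.4, 118, 72.7 and 121 CPM in vehicle aortas, where vehicle 3 and vehicle 5 stood high. Gmpr, guanosine monophosphate reductase, averaged 14.3 ± 2.14 CPM in rofecoxib and 26.2 ± 14.3 CPM in vehicle aortas. Vehicle 5 was highest, and the log2 fold change was -0.87 with it and -0.48 without it.

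General adipocyte markers were less even. All 27 tested were negative with a median of -0.47 on the log2 scale, and 2 were lower at an unadjusted p under 0.05 (7.41%, beside 3.71% of all genes). Their sums were 6421, 3852, 3932, 4037 and 3194 CPM in rofecoxib libraries and 4814, 3945, 4789, 8189 and 8602 CPM in vehicle libraries. Rofecoxib 1, vehicle 4 and vehicle 5 stood apart from the other libraries. Fabp4, the fatty acid binding protein of adipocytes, had 1012, 563, 684, 618 and 548 CPM in rofecoxib and 787, 632, 946, 1389.6 and 1387 CPM in vehicle aortas, a fold of 0.666 (95% interval 0.432 to 1.03). Gpd1, which makes the glycerol backbone of triglycerides, had 321, 130.0, 202, 155 and 102 CPM in rofecoxib and 349, 215, 192, 558 and 966 CPM in vehicle aortas, and its log2 fold change was -1.32 with vehicle 5 and -0.85 without it. The list median was -0.73 without rofecoxib 1 and -0.33 without vehicle 4. Adipoq, adiponectin, was detected in every library, at 62.5 to 192 CPM in rofecoxib and 96.9 to 231 CPM in vehicle aortas.

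Fatty acid oxidation, the main fuel path of brown fat, had negative values for all 29 genes tested, with a median log2 fold change of -0.45. At an unadjusted p under 0.05, 16 (55.2%) were lower, beside 3.71% of all genes, and 0 genes were without overlap. Hadha, the alpha subunit of the trifunctional protein, had 225, 165, 189, 179.9 and 154 CPM in rofecoxib and 231, 204, 218, 267 and 337 CPM in vehicle aortas, a fold of 0.726 (95% interval 0.579 to 0.91). Rofecoxib 1 lay among the vehicle libraries and vehicle 5 was highest. Hadha and Hadhb, which encodes the beta subunit, overlap in the deposited coordinates. Across the 29 genes the SD of log2 CPM was larger in vehicle for 24 (82.8%), beside 64.6% of all genes. Without vehicle 5 it was larger for 8 (27.6%), beside 61.3% of all genes. Acads, the short-chain acyl-CoA dehydrogenase, averaged 40.5 ± 5.56 CPM in rofecoxib and 56.6 ± 14.2 CPM in vehicle aortas. Acadvl, its very-long-chain counterpart, averaged 175 ± 32.2 CPM in rofecoxib and 267 ± 78.8 CPM in vehicle aortas (SD, n = 5 each). The 19 PPAR receptors and targets tested had a median of -0.51, all negative, with 2 (10.5%) lower at an unadjusted p under 0.05.

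Fatty acid and triglyceride synthesis, the opposite path, also had a negative median, -0.35. At an unadjusted p under 0.05, 8 of 27 genes (29.6%) were lower, beside 3.71% of all genes. Acaca, acetyl-CoA carboxylase, had 91.4, 88.5, 61.5, 61.6 and 67.1 CPM in rofecoxib and 109, 70.8, 80.3, 155 and 140.1 CPM in vehicle aortas, where vehicle 1, vehicle 4 and vehicle 5 lay above every rofecoxib library and vehicle 2 and vehicle 3 within the rofecoxib range. Gpam, which adds the first acyl chain to glycerol phosphate, averaged 51.7 ± 9.94 CPM in rofecoxib and 74.5 ± 25.5 CPM in vehicle aortas. Dgat1, which completes triglycerides, averaged 41.1 ± 8.08 CPM in rofecoxib and 57.4 ± 15.8 CPM in vehicle aortas. Cholesterol synthesis and uptake had 23 of 23 genes negative, a median of -0.11 and 1 gene (4.35%) lower at that threshold. The median was -0.015 without vehicle 2. The fatty acid and triglyceride synthesis median was -0.55 without rofecoxib 1 and -0.26 without vehicle 4.

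Genes that build and maintain mitochondria had medians nearer to 0 than those of the respiratory subunits. The large subunit of the mitochondrial ribosome had 44 of 47 genes negative, 12 (25.5%) lower at an unadjusted p under 0.05 and a median of -0.093. The small subunit had 28 of 29 negative, 7 (24.1%) lower and a median of -0.11. The lower share over all genes was 3.71%. Without vehicle 5 the medians were -0.046 for the large and -0.080 for the small subunit. Mrpl34, of the large subunit, had 17.4, 18.2, 16, 18.6 and 15.8 CPM in rofecoxib and 22.7, 19.7, 19.2, 21.8 and 27.2 CPM in vehicle aortas, with no overlap and a fold of 0.778 (95% interval 0.667 to 0.907). Mrpl18 averaged 31.9 ± 1.31 CPM in rofecoxib and 35.5 ± 1.48 CPM in vehicle aortas, and its row overlaps Tcp1, with 6282 mean counts for Tcp1 beside 1049 for Mrpl18. Mrpl30 averaged 27.2 ± 1.9 CPM in rofecoxib and 32.7 ± 3.84 CPM in vehicle aortas.

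In the small subunit, Mrps31 averaged 14.5 ± 1.05 CPM in rofecoxib and 16.8 ± 0.962 CPM in vehicle aortas, a fold of 0.866, and Mrps35 and Mrps2 had folds of 0.853 and 0.843. Import proteins and chaperones had 28 of 30 genes negative and a median of -0.19, which was -0.12 without vehicle 5. At an unadjusted p under 0.05, 10 (33.3%) were lower, beside 3.71% of all genes. Hspe1 and Hspd1 form the chaperonin of the mitochondrial matrix, and their rows overlap each other. Hspe1 had 56.6, 49.3, 53.7, 51.9 and 45.6 CPM in rofecoxib and 59.7, 58.1, 54.6, 62.8 and 67 CPM in vehicle aortas, where rofecoxib 1 overlapped vehicle 3. Hspd1 averaged 142 ± 16.4 CPM in rofecoxib and 177 ± 24 CPM in vehicle aortas, and Hspa9, the matrix Hsp70, averaged 225 ± 24.5 CPM in rofecoxib and 279 ± 39.8 CPM in vehicle aortas. The cytosolic ribosome had a median of -0.022 over 53 genes and the proteasome -0.022 over 31 genes, with 0 genes of either at an unadjusted p under 0.05.

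Glycolysis and glucose uptake had 5 of 23 genes (21.7%) lower at an unadjusted p under 0.05, beside 3.71% of all genes. Their median was -0.068, and it was -0.011 without vehicle 5 and -0.16 without rofecoxib 5. Hk2, the insulin-responsive hexokinase that commits glucose to the cell, had 70.4, 66.4, 69.7, 67.5 and 67.8 CPM in rofecoxib aortas, against 80.2, 76.6, 74.2, 95.2 and 158 CPM in vehicle aortas. The rofecoxib libraries were nearly level and all below the vehicle libraries, of which vehicle 5 stood far above. The fold was 0.706 (95% interval 0.537 to 0.929), and the log2 fold change was -0.50 with vehicle 5 and -0.25 without it. Ldha, lactate dehydrogenase A, had 265, 252, 220.0, 225 and 264 CPM in rofecoxib and 272, 248, 307, 356 and 391 CPM in vehicle aortas, and Eno1, enolase, averaged 257 ± 10.8 CPM in rofecoxib and 332 ± 73.1 CPM in vehicle aortas. In both genes the groups overlapped. The hypoxia response list had a median of -0.066 with 1 of 20 genes lower at that threshold (5%), beside 3.71% of all genes.

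The prostanoid genes, which hold the target of rofecoxib, showed small differences, and in 1 of them, Ptger1, the groups did not overlap. Among all genes tested, 0.72% had every rofecoxib library below every vehicle library. Ptgs2 encodes cyclooxygenase-2 (mm9 chr1:151947052-151955342) and had 33.7, 47.8, 29, 24.8 and 39.5 CPM in rofecoxib aortas, against 18, 32.3, 27.7, 26.8 and 23.3 CPM in vehicle aortas. Rofecoxib 1, rofecoxib 2 and rofecoxib 5 lay above every vehicle library, and rofecoxib 3 and rofecoxib 4 within the vehicle range. The fold was 1.36 (95% interval 0.928 to 2.0), with an unadjusted p of 0.106. The compound acts on the enzyme, and its RNA does not measure that activity.

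Ptgs1, cyclooxygenase-1, had 18.1, 8.88, 20.4, 12.9 and 12.7 CPM in rofecoxib and 14.3, 13, 12, 21.5 and 15.2 CPM in vehicle aortas. The values interleaved, with a fold of 0.961 (95% interval 0.665 to 1.39), and the sign of the difference turned without rofecoxib 2 or without vehicle 4. Ptgis, prostacyclin synthase, stood at 1003, 1313, 931, 996 and 1047 CPM in rofecoxib and 973, 1076, 908, 1096 and 1191 CPM in vehicle aortas. Its fold was 1.01 (95% interval 0.858 to 1.18), the values interleaved, and the sign turned in 3 of the 10 comparisons that left out 1 library. Tbxas1, thromboxane synthase, was scarce, at 1.52, 0.934, 0.977, 1.32 and 0.537 CPM in rofecoxib and 3.21, 0.79, 0.839, 1.81 and 1.61 CPM in vehicle aortas. Vehicle 1 was highest there, and the log2 fold change was -0.64 with it and -0.26 without it. The Tbxas1 row overlaps Hipk2, with 196 mean counts for Hipk2 beside 42.1 for Tbxas1.

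Of the prostaglandin E synthases, Ptges, the inducible form, had 4.81, 4.37, 2.96, 3.34 and 2.94 CPM in rofecoxib and 4.53, 2.83, 5.78, 7.27 and 3.45 CPM in vehicle aortas, which overlapped. Ptges2, a second form, had 14.6, 14.5, 14.5, 16.8 and 13.7 CPM in rofecoxib and 18.9, 16.1, 15.1, 21.3 and 22.9 CPM in vehicle aortas, a fold of 0.786 (95% interval 0.654 to 0.944). Vehicle 1, vehicle 4 and vehicle 5 lay above every rofecoxib library, and the other vehicle libraries within their range. Ptgr2, which breaks prostaglandins down, averaged 43.7 ± 5.76 CPM in rofecoxib and 52.8 ± 6.84 CPM in vehicle aortas (SD, n = 5 each). Over the 22 genes of synthesis and breakdown tested the median log2 fold change was -0.067 with vehicle 4 and 0.010 without it, 14 were negative, and 2 were lower and 0 higher at an unadjusted p under 0.05. The lower share was 9.09%, beside 3.71% of all genes.

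Among 8 receptor genes tested, 1 was lower at that threshold (12.5%), beside 3.71% of all genes. Ptger1, the EP1 receptor for prostaglandin E2 (mm9 chr8:86190530-86196854), had 48.5, 46.9, 44.8, 48.1 and 49.4 CPM in rofecoxib aortas, against 51.8, 53, 54.9, 56 and 64.1 CPM in vehicle aortas. Every rofecoxib library lay below every vehicle library, and the fold was 0.85 (95% interval 0.784 to 0.92) with an unadjusted p of 5.90e-04. The Ptger1 row overlaps the row of another expressed gene, so reads of both may not be told apart.

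The other receptors overlapped between groups. Ptgir, the prostacyclin receptor, had 7.19, 4.0, 6.65, 7.0 and 5.53 CPM in rofecoxib and 8.36, 6.78, 9.3, 5.24 and 5.16 CPM in vehicle aortas, with a fold of 0.873 (95% interval 0.62 to 1.23). Tbxa2r, the thromboxane receptor, had 35.1, 43.5, 37, 38.7 and 43.2 CPM in rofecoxib and 41.8, 42, 33.3, 33.8 and 37.5 CPM in vehicle aortas, with a fold of 1.05 (95% interval 0.903 to 1.22). Without vehicle 3 the log2 fold change of Ptgir was -0.061, against -0.20 with it. Ptger4, the EP4 receptor, had a fold of 0.817 (95% interval 0.609 to 1.09), Ptger3 of 0.933, Ptger2 of 0.857, Ptgfr of 1.15 and Ptgfrn, a regulator of the F receptor, of 1.0. Ptger2 lay under 1 CPM in every library, and the Ptger4 row overlaps Ttc33, with 818 mean counts for Ttc33 beside 154.5 for Ptger4. In the leukotriene, lipoxygenase and epoxide list, 0 of 16 genes reached an unadjusted p under 0.05 and the median was -0.031, or 0.018 without vehicle 4. Ephx2, soluble epoxide hydrolase, averaged 35 ± 14.7 CPM in rofecoxib and 52.1 ± 18.4 CPM in vehicle aortas, with rofecoxib 1 far above the rest of its group. Ltc4s, leukotriene C4 synthase, averaged 1.26 ± 0.439 CPM in rofecoxib and 1.93 ± 1.0 CPM in vehicle aortas, and Aloxe3 lay under 1 CPM in every library.

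**Figure D4:**
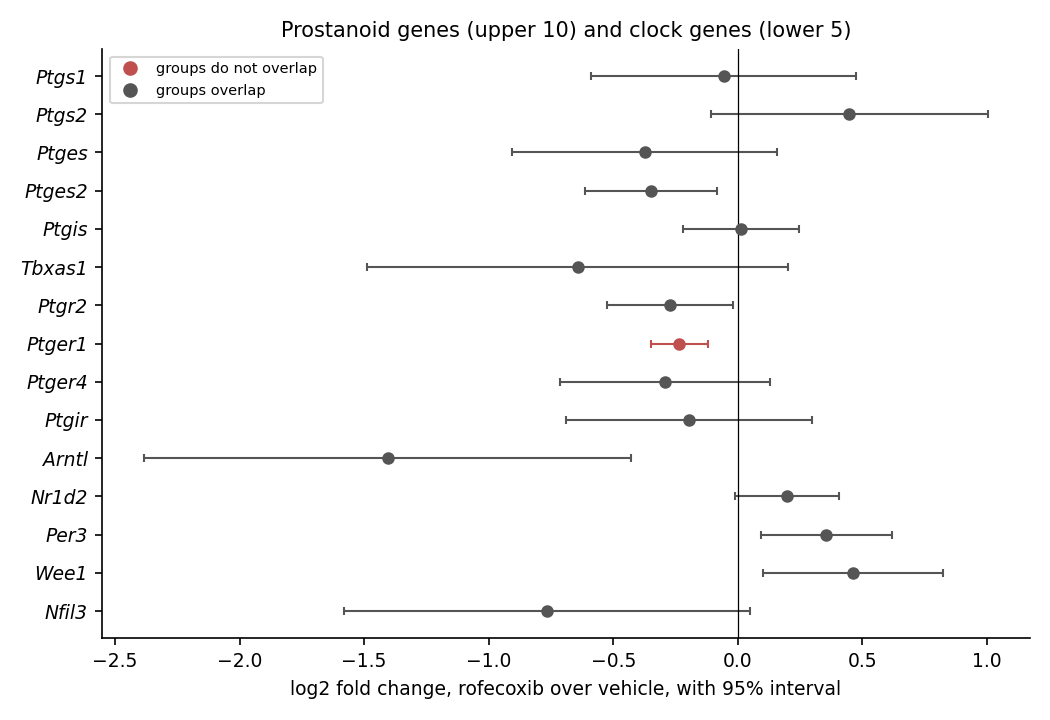
Log2 fold change (rofecoxib over vehicle, x axis) with its 95% interval from the edgeR fit for 10 prostanoid genes and 5 clock genes, 5 libraries a group, red where the groups do not overlap. The Ptger1 interval lies below 0, those of Ptgs1, Ptgs2, Ptgis and Ptgir span 0, and Arntl has the lowest estimate, at -1.41.

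Clock genes were read because all mice were killed at 1 time of day. Arntl encodes BMAL1, the activator of the clock, whose RNA is low late in the light phase in peripheral tissues. Arntl had 1.74, 1.4, 1.67, 2.09 and 1.68 CPM in rofecoxib aortas, against 2.09, 1.65, 10.7, 3.27 and 5.09 CPM in vehicle aortas. Vehicle 3 was far above the others, vehicle 4 and vehicle 5 were also above every rofecoxib library, and vehicle 1 and vehicle 2 lay within the rofecoxib range. The fold was 0.377 (95% interval 0.192 to 0.742), and the log2 fold change was -1.41 with vehicle 3 and -0.80 without it. Per3, a repressor, had 180.3, 174, 186, 194 and 187 CPM in rofecoxib and 192, 156, 119.6, 121 and 132 CPM in vehicle aortas, a fold of 1.28 (95% interval 1.07 to 1.53). Vehicle 3, vehicle 4 and vehicle 5 were low, and vehicle 1 was level with rofecoxib.

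Other clock genes also varied among vehicle libraries. Wee1, a cell cycle kinase under clock control, had 27.7, 30.2, 22.9, 21.4 and 28.7 CPM in rofecoxib and 16.5, 21.5, 11.9, 22.8 and 22.4 CPM in vehicle aortas, lowest in vehicle 3. Nfil3, a repressor of clock output, had 9.51, 14.2, 8.89, 7.1 and 17.5 CPM in rofecoxib and 7.81, 16.5, 24.6, 25.7 and 22.7 CPM in vehicle aortas, highest in vehicle 3, vehicle 4 and vehicle 5. Nr1d2, the REV-ERB beta repressor, averaged 245 ± 20.8 CPM in rofecoxib and 213 ± 28.6 CPM in vehicle aortas. Among other activators and receptors, Clock, Npas2, Arntl2, Nr1d1 and Rora had folds of 0.858, 0.984, 1.11, 1.12 and 1.04. Dbp, an output gene with a strong daily rhythm, averaged 205 ± 48.9 CPM in rofecoxib and 157 ± 80.4 CPM in vehicle aortas, and Per1 and Per2 had folds of 1.22 and 1.11. Of 8 activators and nuclear receptors 2 (25%) were lower at an unadjusted p under 0.05, beside 3.71% of all genes. Of 19 repressors and output genes 2 (10.5%) were higher, beside 1.47% of all genes, and both shares rest on 2 genes. The medians of the activator and repressor lists were 0.017 and 0.038, and that of the activators was -0.083 without vehicle 4. The SD of log2 CPM was larger in vehicle for 7 of 8 (87.5%) and 15 of 19 genes (78.9%), beside 64.6% of all genes.

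The muscle of the vessel wall showed small differences. Of 30 contractile proteins tested, 25 were positive, the median log2 fold change was 0.10 and 1 was higher at an unadjusted p under 0.05, which is 3.33% beside 1.47% of all genes. Myh11 had 10868, 13119, 12094, 12842 and 11492 CPM in rofecoxib and 11218, 12019.7, 10534, 9687 and 11622 CPM in vehicle aortas. Rofecoxib 2, rofecoxib 3 and rofecoxib 4 lay above every vehicle library, rofecoxib 1 and rofecoxib 5 within the vehicle range, and the fold was 1.1 (95% interval 0.991 to 1.21). Cav1, the coat protein of caveolae, averaged 1147 ± 72.9 CPM in rofecoxib and 1034 ± 54.1 CPM in vehicle aortas, and Csrp1, a smooth muscle LIM protein, averaged 2866 ± 297 CPM in rofecoxib and 2568 ± 217 CPM in vehicle aortas. Without rofecoxib 2 the median of the contractile list was 0.055. Regulators of smooth muscle had a median of 0.037, with 1 of 22 genes higher and 1 lower at that threshold (4.55% each), beside 1.47% and 3.71% of all genes.

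Of 30 ion channel and calcium genes, 2 (6.67%) were higher and 1 (3.33%) lower at an unadjusted p under 0.05, beside 1.47% and 3.71% of all genes. Cacna1c, the pore of the L-type calcium channel that triggers contraction, had 74.2, 79.4, 92.4, 82.1 and 80.5 CPM in rofecoxib aortas, against 66.2, 67.8, 53.2, 64.1 and 69.8 CPM in vehicle aortas. Every rofecoxib library lay above every vehicle library, and the fold was 1.27 (95% interval 1.1 to 1.48). The Cacna1c row overlaps Dcp1b, which had 769.6 mean counts, beside 2269 for Cacna1c. Atp2b4, a calcium pump of the plasma membrane, also lay above vehicle in every rofecoxib library, with means of 509.8 ± 25.5 CPM in rofecoxib and 439 ± 50.8 CPM in vehicle aortas. Among all genes tested, 0.436% lay above vehicle in this way. The matrix of the wall was near level, with medians of -0.0053 over 21 elastic fibre genes, -0.028 over 33 collagens and -0.030 over 30 proteoglycans, proteases and inhibitors. Of these, 0, 0 and 2 genes were lower at that threshold, and each of these 3 medians turned its sign with 1 library left out.

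Endothelial genes had slightly lower means. Of 26 identity genes tested 24 were negative, with a median of -0.18, and 1 was lower at an unadjusted p under 0.05 (3.85%, beside 3.71% of all genes). Their sums were 1705, 1057, 1684, 1237 and 1383 CPM in rofecoxib and 1513, 1362, 1588, 1878 and 1584 CPM in vehicle libraries. Rofecoxib 2 was lowest, while rofecoxib 1 and rofecoxib 3 were among the highest of all, and without rofecoxib 2 the median was -0.055. The SD of log2 CPM was larger in vehicle for 4 of the 26 genes, beside 64.6% of all genes. Flt1, a receptor for VEGF, had 63.6, 49.7, 73.6, 56.4 and 63.5 CPM in rofecoxib and 69, 65.5, 76.6, 81.6 and 76.9 CPM in vehicle aortas, a fold of 0.83 (95% interval 0.704 to 0.979). Cdh5, the cadherin of endothelial junctions, had 94.8, 49.4, 93, 67 and 82.5 CPM in rofecoxib and 93.4, 76.9, 89.8, 102 and 85.1 CPM in vehicle aortas, and rofecoxib 2 and rofecoxib 4 lay below every vehicle library. Tal1, a transcription factor of endothelium and blood, had 4.77, 1.8, 4.82, 3.05 and 3.6 CPM in rofecoxib and 4.6, 4.25, 5.01, 5.68 and 4.53 CPM in vehicle aortas, again lowest in rofecoxib 2.

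Nos3, the endothelial nitric oxide synthase, had 37.2, 23.5, 37.3, 23.2 and 31.3 CPM in rofecoxib and 31.5, 26.4, 38.2, 56.9 and 37.7 CPM in vehicle aortas. Vehicle 4 was highest, and the log2 fold change was -0.32 with it and -0.13 without it. The nitric oxide list had a median of -0.026 and the endothelin, angiotensin and natriuretic list -0.082, with 0 of 23 and 0 of 22 genes at an unadjusted p under 0.05. Egfl7, secreted by endothelium, averaged 37.4 ± 10.7 CPM in rofecoxib and 48.6 ± 3.76 CPM in vehicle aortas, and its row overlaps Agpat2, a gene of lipid synthesis, with 2471 mean counts for Agpat2 beside 1339 for Egfl7. The thrombosis and fibrinolysis list had a median of -0.0034 over 23 genes with 0 at that threshold. Adhesion molecules, cytokines and inflammation genes had a median of -0.32 over 26 genes, and without vehicle 3 the median was -0.089. Of the 26, 3 (11.5%) were lower at that threshold, beside 3.71% of all genes.

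Markers of neighbouring tissues varied between mice of both groups. All 24 sympathetic neuron genes tested had positive values, with a median of 0.98 on the log2 scale, and 0 reached an unadjusted p under 0.05. Their sums were 78.4, 86.2, 443, 75.4 and 828 CPM in rofecoxib libraries and 68.9, 84.4, 80.0, 571 and 102 CPM in vehicle libraries. Rofecoxib 3, rofecoxib 5 and vehicle 4 held high levels and the remaining 7 libraries low ones. Th, tyrosine hydroxylase, had 0.0968, 0.334, 22.5, 0.0642 and 52.2 CPM in rofecoxib and 0, 0.494, 0.933, 32.3 and 2.56 CPM in vehicle aortas, and Dbh, dopamine beta-hydroxylase, had 0.161, 0, 45.2, 0.0321 and 94.6 CPM in rofecoxib and 0, 1.22, 2.36, 63.2 and 4.33 CPM in vehicle aortas. The list median was -0.15 without rofecoxib 5 and 3.40 without vehicle 4, so its sign rested on 1 library. Uchl1, a neuronal hydrolase, averaged 74.9 ± 26 CPM in rofecoxib and 59.2 ± 18.6 CPM in vehicle aortas, and the transcription factor Phox2a had 0 to 4.68 CPM in rofecoxib and 0 to 2.44 CPM in vehicle aortas. The Phox2a row overlaps Inppl1, with 3098 mean counts for Inppl1 beside 30.9 for Phox2a. Schwann cell genes summed to 360.0 to 839 CPM in rofecoxib and 414 to 650.4 CPM in vehicle libraries, with a median of -0.097. This median was -0.66 without rofecoxib 5 and 0.13 without vehicle 4. Its sign turned in 3 of the comparisons that left out 1 library. Gldn, S100b and Fa2h had folds of 1.11, 0.784 and 0.507, and the log2 fold change of Fa2h was -0.98 with rofecoxib 5 and -2.21 without it. The S100b row overlaps Dip2a, with 1688 mean counts for Dip2a beside 253 for S100b.

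Blood cell genes had negative values for all 10 tested and a median of -0.98, with 0 at an unadjusted p under 0.05. Hba-a1 had 29.3, 6.34, 38, 17.6 and 12 CPM in rofecoxib and 19.9, 9.54, 98.5, 59.9 and 76.3 CPM in vehicle aortas, and Hbb-b1 had 46, 10.4, 67.4, 27 and 17.7 CPM in rofecoxib and 30.1, 14.5, 151, 88 and 109.5 CPM in vehicle aortas. Vehicle 3, vehicle 4 and vehicle 5 were high, while vehicle 1 and vehicle 2 lay within the rofecoxib range, and without vehicle 3 the list median was -0.62. Globin genes have near-identical copies whose reads the counting could split. The Hba-a2 copy had a fold of 0.407.

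The remaining cell type lists had medians near 0, or ones that turned sign with 1 library left out. Fibroblast genes had a median of -0.067 and macrophage genes one of -0.051, with 0 of 20 and 0 of 21 genes at an unadjusted p under 0.05. The fibroblast median was 0.027 without rofecoxib 5 and the macrophage median 0.14 without vehicle 4, so neither kept its sign. Sfrp4, Mfap5 and Gsn of the fibroblast list had folds of 1.28, 1.1 and 0.907. Of the macrophage list, Cd14, a receptor for endotoxin, had 6.06, 5.81, 3.94, 3.82 and 4.17 CPM in rofecoxib and 5.17, 3.52, 11.9, 8.44 and 4.47 CPM in vehicle aortas, highest in vehicle 3 and vehicle 4. Lyz1 had a log2 fold change of -0.98, which was -0.045 without vehicle 1, and F13a1 had a fold of 1.15.

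Mast cell genes had a median of -0.049, which was 0.18 without vehicle 4, with 0 of 8 at that threshold, and Cpa3, Hdc and Kit had folds of 1.2, 0.885 and 0.891. Muscle genes had a median of -0.15 over 17 genes, which was 0.046 without vehicle 3. Ckm, the creatine kinase of skeletal muscle, had 4.74, 10.0, 4.92, 9.99 and 5.69 CPM in rofecoxib and 5.37, 5.17, 5.04, 5.62 and 4.56 CPM in vehicle aortas, and rofecoxib 2 and rofecoxib 4 stood above all other libraries. Tnnt3 and Mb had folds of 1.43 and 0.427. Their rows overlap Gm14492 (610 mean counts, beside 64.6 for Tnnt3) and Apol6 (1822, beside 39.5 for Mb). The heart myosin Myh6 ranged from 2.85 to 15.8 CPM in rofecoxib and from 3.28 to 27 CPM in vehicle aortas.

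The mesothelial list had a median of -0.036 over 7 genes, and Krt18, Rspo1 and Lrrn4 had folds of 1.19, 0.671 and 0.54. The defining marker Msln lay under the test filter, at 0 to 0.567 CPM in rofecoxib and 0.0328 to 1.33 CPM in vehicle aortas. Lymphocyte genes had a median of -0.20 over 4 genes, which was 0.041 without rofecoxib 2. The B cell marker Cd79a and the T cell marker Cd3e lay under 1 CPM in every library, as did Lck, Cd4 and Cd5, whose folds were 0.836, 0.659 and 1.2.

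The genes with the smallest p-values above vehicle had modest folds. Strn, striatin, a scaffold of a phosphatase complex, had 34.6, 31, 32.8, 32.9 and 32.2 CPM in rofecoxib aortas, against 27.5, 29.8, 29.9, 27.6 and 28.3 CPM in vehicle aortas. All rofecoxib libraries lay above all vehicle libraries, and the fold was 1.14 (95% interval 1.07 to 1.22). Plcb4, a phospholipase C that acts below G protein coupled receptors, had 468, 574, 547, 575 and 515 CPM in rofecoxib and 471, 467, 462, 405 and 411 CPM in vehicle aortas, and rofecoxib 1 lay under vehicle 1. Prr5l, a partner of the mTORC2 kinase complex, had 9.84, 12.1, 10.3, 8.61 and 9.96 CPM in rofecoxib and 8.52, 7.86, 6.96, 8.0 and 6.96 CPM in vehicle aortas, with no overlap and a fold of 1.32 (95% interval 1.14 to 1.54).

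Dnm3os, a noncoding RNA that hosts microRNAs and lies opposite Dnm3, had 46.9, 48, 41.5, 40.3 and 66.2 CPM in rofecoxib and 36.9, 35.7, 32.4, 36.8 and 24.3 CPM in vehicle aortas. The groups did not overlap, rofecoxib 5 was highest and vehicle 5 lowest, and the fold was 1.46 (95% interval 1.18 to 1.81). Mthfd1l, a mitochondrial enzyme of folate metabolism, had 19.7, 22.2, 18.2, 17.2 and 22.4 CPM in rofecoxib and 15.7, 14.5, 8.12, 15.8 and 15.2 CPM in vehicle aortas, again without overlap and lowest in vehicle 3. Malt1, a protease of immune signalling, averaged 42.6 ± 5.0 CPM in rofecoxib and 33 ± 4.53 CPM in vehicle aortas. Snapin, Ptpn3 (a tyrosine phosphatase) and Nebl (a nebulin relative of the actin cytoskeleton) had folds of 1.13, 1.25 and 1.22, each with some overlap, and the Snapin row overlaps Ilf2.

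Among the genes of smallest p below vehicle, Hist1h4h led, an H4 histone gene of a family with near-identical members whose RNAs mostly lack poly(A) tails. Hist1h4h had 0.71, 0.701, 0.914, 0.771 and 0.98 CPM in rofecoxib aortas, against 1.51, 1.28, 1.18, 2.22 and 1.84 CPM in vehicle aortas. There was no overlap, and the fold was 0.509 (95% interval 0.384 to 0.673) with an unadjusted p of 1.26e-04, at low counts. Pim1, a survival kinase induced by cytokines, had 8.8, 5.47, 7.25, 6.55 and 6.26 CPM in rofecoxib and 11.9, 9.25, 19.7, 18.3 and 16.6 CPM in vehicle aortas. Every rofecoxib library lay below every vehicle library, with vehicle 3, vehicle 4 and vehicle 5 highest, and the fold was 0.454 (95% interval 0.298 to 0.69).

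Acsl5, which activates long-chain fatty acids, had 53.4, 47.4, 55.8, 47.3 and 51 CPM in rofecoxib and 65.1, 56, 59.3, 66.3 and 78.2 CPM in vehicle aortas, without overlap, and its row overlaps Zdhhc6. Tspan9, a tetraspanin, had 89.7, 74.7, 76.9, 87.2 and 76.8 CPM in rofecoxib and 96.5, 105, 101, 90.6 and 95.7 CPM in vehicle aortas, and the groups came within 1 CPM of each other without overlapping. Cenpv, a centromere protein, averaged 4.44 ± 0.202 CPM in rofecoxib and 5.75 ± 0.441 CPM in vehicle aortas, without overlap. Pnp, a purine phosphorylase, averaged 33.1 ± 2.79 CPM in rofecoxib and 43.9 ± 7.97 CPM in vehicle aortas. Setd1b (a histone H3 lysine methyltransferase), Rabggtb (a subunit of Rab prenyltransferase) and Iffo2 had folds of 0.838, 0.834 and 0.816 and overlapped.

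**Figure D5:**
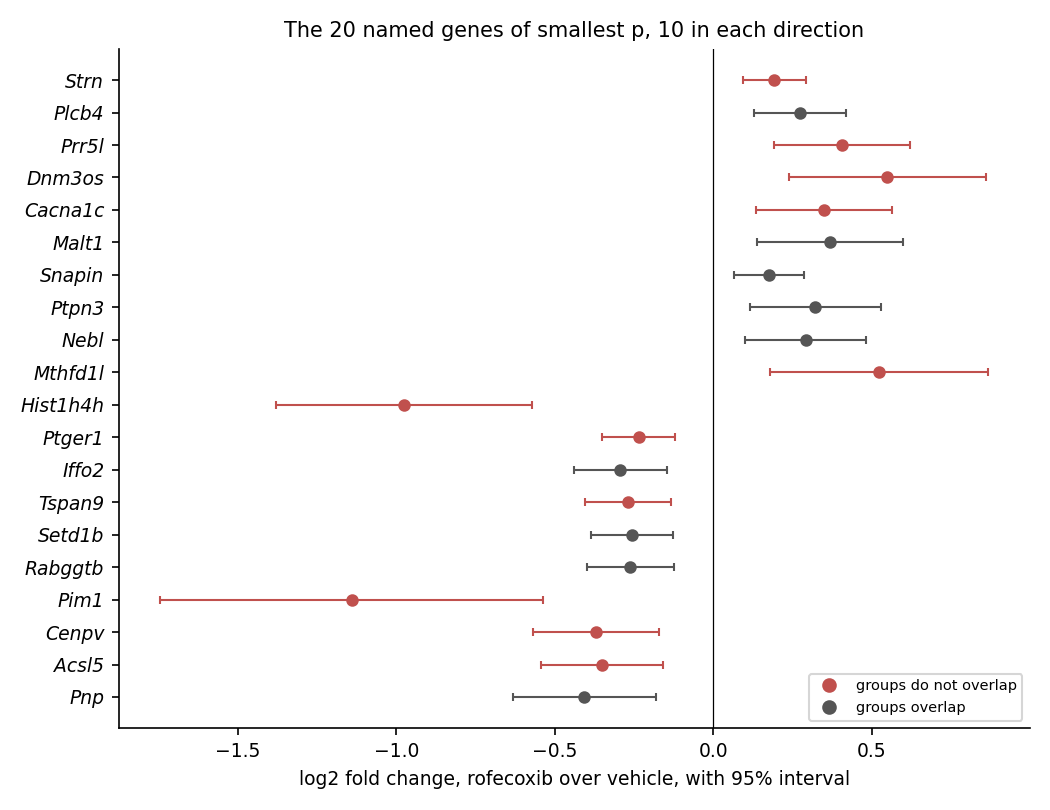
Log2 fold change (rofecoxib over vehicle, x axis) with its 95% interval from the edgeR fit for the 10 genes of smallest p in each direction, 5 libraries a group, red where the groups do not overlap. Strn heads the genes above vehicle at 0.19 and Hist1h4h those below at -0.98, while Pim1 has the lowest estimate and the widest interval.

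Several stress and hormone lists held a larger share of lower genes at an unadjusted p under 0.05 than the 3.71% of all genes, on small counts. These were the antioxidant list with 4 of 25 (16%), adrenergic and cyclic AMP genes with 4 of 30 (13.3%), immediate early genes with 3 of 31 (9.68%), xenobiotic enzymes with 2 of 22, endoplasmic reticulum stress genes with 2 of 25 and carbonic anhydrases with 1 of 12. Glucocorticoid targets had 1 lower of 25 and cytosolic chaperones 1 lower of 30, and 1 glucocorticoid target and 1 adrenergic gene were higher. The antioxidant median was -0.063, or -0.034 without rofecoxib 2, and that of the chaperones -0.066, or -0.043 without vehicle 5. Other medians also moved with single libraries, since that of xenobiotic enzymes was -0.15 with vehicle 4 and -0.019 without it, that of endoplasmic reticulum stress genes -0.060 with rofecoxib 5 and -0.011 without it, and that of carbonic anhydrases -0.17 with rofecoxib 3 and -0.089 without it. Immediate early genes had a median of -0.076, which was -0.0081 without rofecoxib 4, and glucocorticoid targets one of -0.030, which was 0.055 without that library. The adrenergic median was -0.058, and -0.014 without vehicle 5. VEGF and angiopoietin genes had 3 of 18 lower at that threshold and a median of -0.15, which was -0.053 without rofecoxib 2, and cell cycle genes had a median of -0.0024. Genes of these lists without overlap between groups were Sesn1, a glucocorticoid target, above vehicle, and Prdx1, an antioxidant peroxiredoxin, and Adrb1, the beta-1 adrenergic receptor, below it. Among all genes tested, 0.436% lay wholly above vehicle and 0.72% wholly below, so these single genes are not read as results about their lists. Sesn1 averaged 113 ± 8.72 CPM in rofecoxib and 90.5 ± 5.56 CPM in vehicle aortas, and Prdx1 averaged 237 ± 6.04 CPM in rofecoxib and 253 ± 7.79 CPM in vehicle aortas. Adrb1 averaged 1.22 ± 0.338 CPM in rofecoxib and 2.83 ± 0.904 CPM in vehicle aortas.

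Celecoxib aortas were sequenced beside these, at 30 mg/kg where rofecoxib was given at 10 mg/kg, so the doses differ and no comparison at matched dose was possible. The comparisons with vehicle share the vehicle libraries, including vehicle 5. The edgeR test between rofecoxib and celecoxib compares these groups and not matched doses. It called 0 genes (0%), with 1053 (6.96%) at an unadjusted p under 0.05, and DESeq2 called 19. Median log2 fold changes against vehicle under rofecoxib were -0.28 for complex I, -0.40 for complexes II to IV and -0.87 for brown adipocyte genes. Under celecoxib they were -0.29 for complex I, -0.37 for complexes II to IV and -1.13 for brown adipocyte genes. Ucp1 had 217, 60.9, 175, 132 and 85.1 CPM in rofecoxib aortas and 146, 6.63, 73.4, 243 and 37.8 CPM in celecoxib aortas. Ptgs2 had 35 ± 9.03 CPM in rofecoxib and 52 ± 22.7 CPM in celecoxib aortas (SD, n = 5 each), and Ndufa3 had 37.1 ± 0.522 CPM in rofecoxib and 37.7 ± 3.85 CPM in celecoxib aortas.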

How the data were processed

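Polyadenylated RNA of 15 aortas was sequenced (TruSeq, 13 PCR cycles), with library construction over 3 days per the labels' protocols. No day is given per library, so no batch could be modelled. The authors deposited whole-number counts per gene. The submitters' processing notes name CASAVA 1.8.2, STAR 2.5.2a and build mm9. How reads were counted, on which annotation and whether by strand, is not given in the sources used here. Overlapping and antisense genes are therefore uncertain. Of 107 named genes, 38 overlap another row with a mean of at least 1 count. Library totals in the deposited table lie unusually close together, and no source used here says whether reads or counts were sampled down. Any earlier depth is unknown.

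From the counts, edgeR 4.0.16 (R 4.3.3) kept genes by filterByExpr, scaled libraries by TMM (trimmed mean of M-values, factors 0.968 to 1.04) and fitted 1 robust quasi-likelihood model to all 15 libraries without covariates. P-values were adjusted over 15134 genes by the Benjamini-Hochberg method at 0.05. The common coefficient of variation was 0.228. Intervals cover 95%, and list levels use log2 CPM with a prior count of 2. DESeq2 1.42.0, limma-voom (limma 3.58.1), other scalings and filters, a replicate block and leaving out each library were alternatives. Libraries of a group differed beyond sampling noise (smallest chi-square per gene 14.7 over 12505 genes with a mean of at least 50 counts). The fit was tested on simulated data. Figures were drawn with matplotlib 3.10.9.

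The 53 lists held 1332 entries, of which 1228 were tested. Members and lists were chosen with earlier results of these data known, and no list was tested. Named genes were the 10 of smallest p in each direction (mean CPM of at least 1, no predicted or small RNA genes), since fewer than 5 were called, the 3 of smallest p in each list described in detail, and 12 fixed genes. Lists described in detail were the prostanoid, clock and cell type lists and those with at least 5 members at an unadjusted p under 0.05 in 1 direction and a share at least 3 times that over all genes. Cox7a1, Sdha, Sdhd, Nrf1, Esrra, Ppargc1a, Adipoq, Th, Dbh, Myh6, Msln, Cd79a, Cd3e, Dbp, Atp2b4, Sesn1, Prdx1 and Adrb1 are named outside these 3 rules, as defining markers or after their values were seen, as are the remaining prostanoid receptors, clock genes and oxidative phosphorylation genes without overlap. A few genes are not reported here.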

Additional observations from a re-analysis of the deposited data

Results flagged for a closer look

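A library far from the others of its group was found in 15 of 214 groups (107 named genes, each in rofecoxib and in vehicle), by Dixon's test at a ratio of 0.71 for 5 samples, and chance gives about 1 in 20. Vehicle 4 held 6 of the 15. In rofecoxib 1, Pdhb stood at 96.4 CPM, Ephx2 at 60.9 CPM and Dgat1 at 55.5 CPM, each the highest of its group, and in rofecoxib 5 Uchl1, a neuronal hydrolase, stood at 120.0 CPM. In vehicle 4, the neuronal genes Uchl1 and Phox2a stood at 91.6 and 2.44 CPM, the mast cell gene Cpa3 at 2.22 CPM, F13a1 at 44.6 CPM, Gsn at 3128.5 CPM and Lrrn4 at 0.889 CPM, all high. In vehicle 5, Hk2 stood at 158 CPM and Gmpr at 51.2 CPM, both high. In vehicle 3, Hdc stood high at 2.98 CPM and Mthfd1l low at 8.12 CPM, and in vehicle 1 Cenpv stood high at 6.52 CPM. None of these 15 was tested further.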

How the results depend on the processing

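Rofecoxib against vehicle called 0 genes in every alternative run, which were other scalings, filters, the 10 libraries alone, DESeq2 (smallest adjusted p 0.279), limma-voom (252 higher and 528 lower genes at an unadjusted p under 0.05), the replicate block and each library left out. The cause of the changes below was not tested, except that leaving a library out makes it easier for groups not to overlap.

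Genes higher at an unadjusted p under 0.05 numbered 341 without a filter and 387 with the 10 libraries alone. The oxidative phosphorylation genes without overlap numbered 11 without scaling. DESeq2 called 19 genes between rofecoxib and celecoxib. The mesothelial median log2 fold change was -0.32 with limma-voom and -0.34 with the replicate block.

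Over each library left out, genes at an unadjusted p under 0.05 numbered 453 (without vehicle 5) to 1099 (without vehicle 2), with 141 to 424 higher and 293 (without vehicle 5) to 708 lower, and lower genes made up 59.7% to 77.5% of them. Genes without overlap numbered 238 to 476, with 95 to 203 higher and 130 to 344 lower. The oxidative phosphorylation counts ran from 44 (without vehicle 5) to 89 lower at that threshold and from 17 to 61 without overlap. Genes called between rofecoxib and celecoxib ran from 0 to 1 (without celecoxib 5). Median log2 fold changes ran from -0.50 to 0.074 for mesothelial genes, from -0.23 to -0.048 for prostanoid receptors and from -0.15 to 3.40 for sympathetic neuron genes. The log2 fold change turned its sign for 4 genes, running from -0.020 to 0.57 for Cpa3, -0.070 to 0.062 for Ptgis, -0.36 to 0.014 for Hdc and -0.20 to 0.11 for Ptgs1. Counted over all alternative runs and not only these, 2015 gene values kept their direction and 0 crossed the adjusted threshold.

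Replicate numbers did not pair the samples: deviations of same-numbered rofecoxib and vehicle libraries correlated at 0.456, 0.322, -0.117, -0.758 and 0.0253. With the number as a replicate block the test called 0 genes, with 250 higher and 588 lower before adjustment and a smallest adjusted p of 0.847. The lymphocyte list had no value under the 1 CPM filter.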
